A study of Mus musculus with 6 samples.

Results

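The genes described here are 9 genes of calcium handling in skeletal muscle fibres: the cytosolic buffer Pvalb, the calsequestrins Casq1 and Casq2, the calcium pumps Atp2a1 and Atp2a2, the pump inhibitors Sln and Pln, and the reticulum proteins Srl and Hrc. They were chosen by symbol, and all 9 were found once each among the 22036 gene rows of the table. The tissue was skeletal muscle from PRR14 knockout mice, whose muscle of origin, age and strain the labels do not give (PRR14 is a protein of the nuclear lamina). The MEF2C group received MEF2C-GFP, a transcription factor of muscle together with green fluorescent protein, through AAV (adeno-associated virus, used to deliver genes), and the GFP group received GFP through AAV. Every library of either group came from the knockout, 1 month after injection, with 3 libraries per group, and neither a wild-type nor an uninjected sample was analysed here. The promoter that drives the viral gene is not given in the sources used here. Levels are read counts of Oxford Nanopore PCR-cDNA libraries, given as normalised CPM, that is CPM (reads of a gene relative to all listed reads of its library) after TMM scaling (trimmed mean of M-values).

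A muscle fibre contracts when calcium leaves the sarcoplasmic reticulum and relaxes when SERCA pumps return it there. Calsequestrins hold the stored calcium inside the reticulum, parvalbumin binds calcium in the cytosol of fast fibres, and small membrane peptides such as sarcolipin and phospholamban slow the pumps. Fast fibres are known for Pvalb, Casq1 and the pump SERCA1 (Atp2a1), whereas slow fibres and heart use SERCA2 (Atp2a2) and Casq2, and MEF2C is known to drive genes of slow fibres.

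Library depth was even, with listed counts between 3370833 and 3900617, so that the floor of 3 counts stood between 0.726 and 0.957 normalised CPM. Mef2c itself stood at 234, 196 and 371 normalised CPM across MEF2C replicates 1 to 3, against 223, 261 and 236 across GFP replicates 1 to 3. Mef2c exceeded its GFP levels in MEF2C replicate 3 only, and the directions given are therefore those of the libraries labelled MEF2C. Prr14 had 20 to 30 counts per library in the MEF2C group and 11 to 15 in the GFP group, without overlap, and all 6 libraries carry the knockout label. Muscle markers were present in every library, whereas heart markers were at or near the floor: the 8 of them summed to between 1.21 and 3.98 normalised CPM in the MEF2C libraries and between 1.60 and 5.04 in the GFP libraries, with Nppa, Myl7 and Mybpc3 at 0 counts in all 6. Whether each library stands for its own mouse is not given in the labels, so the spread behind each p-value is that of these 6 samples and may be technical.

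The regions before the starts of Pvalb, Casq2 and Casq1 are shown because these genes carry the fast and slow calcium-binding contrast and because MEF2 proteins bind a known site. Each line gives the 250 bases before the RefSeq start, 5′ to 3′ on the strand of the gene, in GRCm38.p6; the windows are chr15:78206401-78206650 on the minus strand, chr3:102086165-102086414 on the plus strand and chr1:172219896-172220145 on the minus strand. Capitals mark a match to the MEF2 consensus, and Casq1 had none.
Pvalb: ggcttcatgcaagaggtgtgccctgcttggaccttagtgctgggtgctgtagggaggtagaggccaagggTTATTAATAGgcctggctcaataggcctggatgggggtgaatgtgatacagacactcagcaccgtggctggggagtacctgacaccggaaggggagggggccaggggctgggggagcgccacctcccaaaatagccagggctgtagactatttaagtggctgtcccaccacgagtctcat
Casq2: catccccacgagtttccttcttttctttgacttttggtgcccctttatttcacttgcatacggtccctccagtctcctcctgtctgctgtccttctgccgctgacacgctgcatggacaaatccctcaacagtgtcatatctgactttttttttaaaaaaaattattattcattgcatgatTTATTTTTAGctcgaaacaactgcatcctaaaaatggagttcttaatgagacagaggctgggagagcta
Casq1: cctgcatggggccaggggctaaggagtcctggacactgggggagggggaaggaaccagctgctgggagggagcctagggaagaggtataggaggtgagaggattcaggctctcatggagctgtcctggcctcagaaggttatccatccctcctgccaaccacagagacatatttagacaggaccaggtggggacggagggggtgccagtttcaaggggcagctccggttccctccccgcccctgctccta
The match lay 180 to 171 bases before the start in Pvalb and 69 to 60 bases before it in Casq2. Of 32851 RefSeq windows of the same length, searched on both strands, 2.92% held the MEF2 consensus and 66.2% held the E-box CANNTG, the site of the MyoD family. The E-box was found in the windows of Casq1, Casq2, Hrc, Atp2a1 and Pln and in the window of a second Pvalb start, and not in the Pvalb window shown. RefSeq windows were matched for 6 of the 9 genes (7 windows), and Pvalb and Casq2 were the 2 genes with a MEF2 match. The Pvalb match stands before a gene that was lower in the libraries labelled MEF2C, and the Casq2 match before a gene whose groups overlapped. A match is a description of letters, and binding was not measured. The windows shown include every MEF2 match found, and the genes were chosen with earlier results of these data known. The matches are therefore no test against the share of all windows.

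Parvalbumin fell in the libraries labelled MEF2C. Pvalb (ENSMUSG00000005716, GRCm38 chromosome 15, 78191114 to 78206400, minus strand) stood at 8413, 7255 and 8346 normalised CPM across MEF2C replicates 1 to 3, against 13673, 16585 and 13806 across GFP replicates 1 to 3. The highest MEF2C library lay far below the lowest GFP library, and replicate 2 was the lowest of the MEF2C group and the highest of the GFP group. The mean was 0.545 times the GFP mean, and the log2 fold change was -0.88 ± 0.12 (SE; edgeR adjusted p = 0.0162). Pvalb was the only 1 of the 9 genes that edgeR called, where 0.0758% of all 9229 tested genes were called, 0.0325% higher and 0.0433% lower. The call was lost without MEF2C replicate 2 (edgeR adjusted p = 0.169), without GFP replicate 2 (0.129) and without GFP replicate 3 (0.140), and with non-robust dispersion (0.0780), while the fold change stayed between -0.94 and -0.78 whichever library was left out. In bulk tissue, fewer cells of a type and less RNA per cell cannot be told apart.

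**Figure D1:**
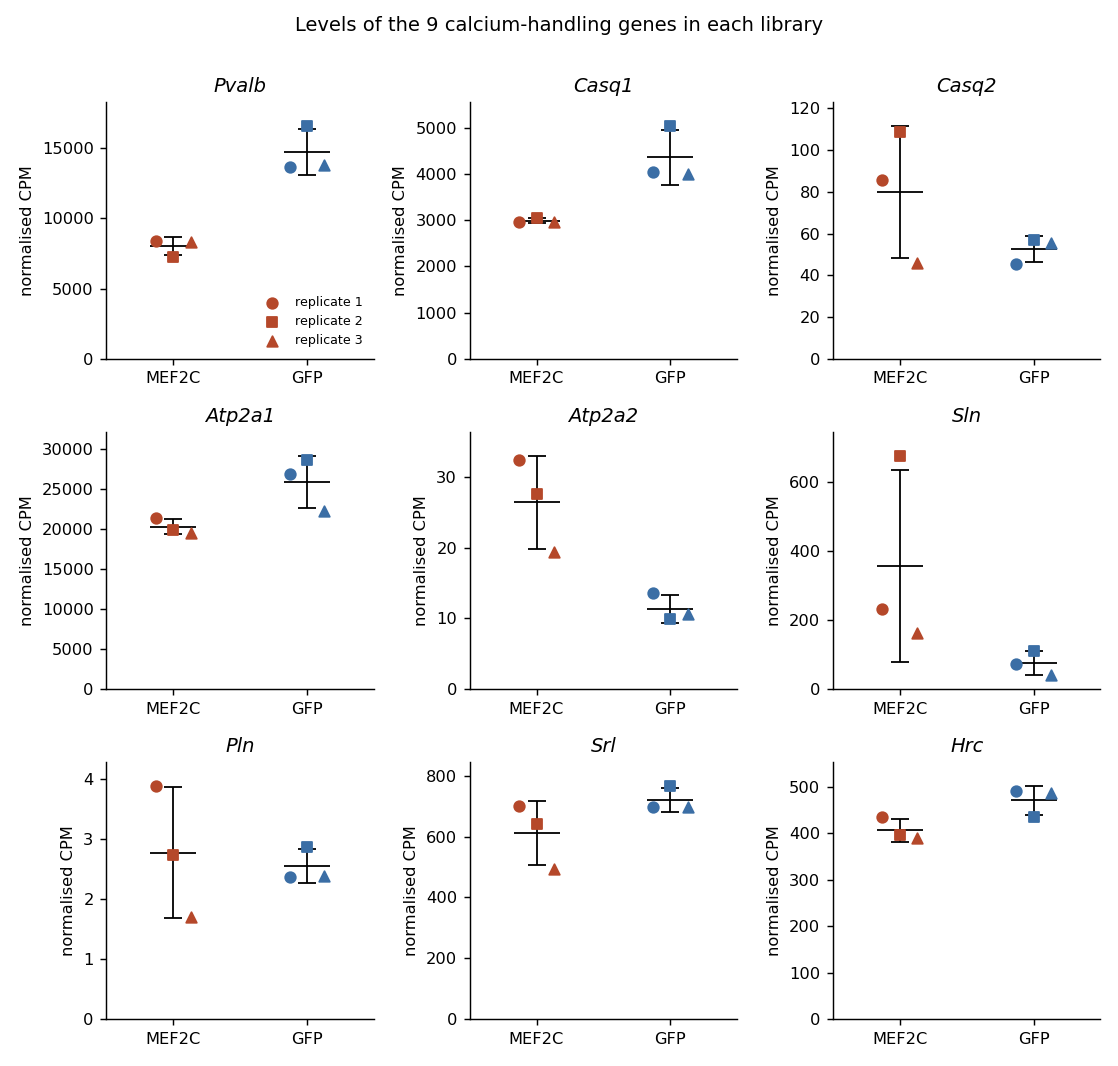
Normalised CPM of the 9 genes in the 3 MEF2C and 3 GFP libraries, with 1 panel per gene and its own axis from 0; points are libraries, marked by replicate number, and bars are the mean ± SD. Pvalb, Casq1 and Atp2a1 lie lower in all 3 MEF2C libraries, Atp2a2 and Sln higher, and the groups overlap for Casq2, Pln, Srl and Hrc.

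The fast calsequestrin stood lower and the slow calsequestrin varied. Casq1, the main calcium store protein of fast fibres (ENSMUSG00000007122, chromosome 1, 172209894 to 172219868, minus strand), stood at 2951, 3049 and 2954 normalised CPM across MEF2C replicates 1 to 3, against 4042, 5042 and 3995 across GFP replicates 1 to 3. The MEF2C libraries had a coefficient of variation of 1.88% and did not overlap with the GFP libraries, whose coefficient was 13.6%. The log2 fold change was -0.55 ± 0.12 (SE), and the edgeR adjusted p of 0.211 did not pass. With no low-count filter it passed (edgeR adjusted p = 0.00817), where 0.228% of 15334 genes were called. Casq1 did not pass whichever library was left out (edgeR adjusted p between 0.133 and 0.844). Casq2, the calsequestrin of heart and slow fibres (ENSMUSG00000027861, chromosome 3, 102086415 to 102146514, plus strand), stood at 85.5, 109 and 45.7 normalised CPM across MEF2C replicates 1 to 3, against 45.6, 57.1 and 55.4 across GFP replicates 1 to 3. MEF2C replicates 1 and 2 lay above all GFP libraries, and replicate 3 lay among them. The log2 fold change was 0.60 ± 0.30 (SE; edgeR adjusted p = 0.928). Without MEF2C replicate 3 it was 0.88 and passed (edgeR adjusted p = 0.0489, where 0.232% of tested genes were called), without MEF2C replicate 2 it was 0.31, and for MEF2C replicate 3 alone it was -0.22.

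The fast-to-slow ratio within a library needs no scaling between libraries. The Casq1 to Casq2 ratio of counts was 34.5, 28.1 and 64.6 across MEF2C replicates 1 to 3, against 88.6, 88.3 and 72.1 across GFP replicates 1 to 3. The groups did not overlap, and the gap between the nearest libraries, MEF2C replicate 3 and GFP replicate 3, was small. The mean ratio was 42.4 ± 19.5 in the MEF2C libraries and 83.0 ± 9.41 in the GFP libraries (SD, n = 3 each), a log2 difference of -1.06 ± 0.37 (SE), with a two-sided exact permutation p = 0.1, the smallest that 3 against 3 libraries allow. Expressed as a share, Casq2 made up 2.82% of calsequestrin reads in MEF2C replicate 1 (95% Wilson interval 2.53 to 3.13), 3.44% in replicate 2 (3.13 to 3.77) and 1.52% in replicate 3 (1.32 to 1.76). In the GFP libraries the share was 1.12% in replicate 1 (0.954 to 1.31), 1.12% in replicate 2 (0.968 to 1.30) and 1.37% in replicate 3 (1.20 to 1.56). The intervals of MEF2C replicate 3 and GFP replicate 3 overlapped, whereas those of MEF2C replicates 1 and 2 lay above every GFP interval. These intervals cover counting error only, and not the differences between libraries of 1 group. They take each read as independent, which PCR copies of a molecule are not, so they may be too narrow even for counting error. The log2 difference was -1.41 without MEF2C replicate 3 and -0.36 for MEF2C replicate 3 alone.

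The fast pump stood lower by less, and the slow pump stood higher. Atp2a1, which encodes SERCA1 (ENSMUSG00000030730, chromosome 7, 126445858 to 126463108, minus strand), stood at 21355, 19938 and 19591 normalised CPM across MEF2C replicates 1 to 3, against 26919, 28634 and 22321 across GFP replicates 1 to 3. The groups did not overlap, with GFP replicate 3 nearest to the MEF2C libraries. The log2 fold change was -0.36 ± 0.12 (SE; edgeR adjusted p = 0.749). Atp2a2, which encodes SERCA2 (ENSMUSG00000029467, chromosome 5, 122453513 to 122502225, minus strand), had 125, 111 and 80 counts across MEF2C replicates 1 to 3, and 46, 31 and 40 counts across GFP replicates 1 to 3. As normalised CPM this was 32.4, 27.6 and 19.4 in the MEF2C libraries, against 13.6, 9.89 and 10.6 in the GFP libraries. Every MEF2C library lay above every GFP library, with replicate 3 the lowest of its group, as it was for Casq2. The log2 fold change was 1.21 ± 0.23 (SE; edgeR adjusted p = 0.120), which did not pass in the edgeR test of all 6 libraries. It passed with DESeq2 (adjusted p = 0.0119, where 0.463% of genes with an adjusted p were called), and with edgeR without MEF2C replicate 3 (adjusted p = 0.0189). It did not pass with limma-voom (adjusted p = 0.190) or in 5 of the 6 edgeR runs with 1 library left out (adjusted p up to 0.726).

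The pump ratio separated the groups more widely than the calsequestrin ratio. The Atp2a1 to Atp2a2 ratio of counts was 659, 721 and 1012 across MEF2C replicates 1 to 3, against 1975, 2895 and 2106 across GFP replicates 1 to 3. The highest MEF2C ratio was far below the lowest GFP ratio. The mean ratio was 798 ± 188 in the MEF2C libraries and 2325 ± 498 in the GFP libraries (SD, n = 3 each), a log2 difference of -1.55 ± 0.25 (SE), again with an exact two-sided permutation p = 0.1. The share of Atp2a2 in the reads of both pumps was 0.151%, 0.138% and 0.0987% across MEF2C replicates 1 to 3, and 0.0506%, 0.0345% and 0.0475% across GFP replicates 1 to 3. The lowest bound of the MEF2C 95% Wilson intervals, 0.0793% in replicate 3, lay above the highest bound of the GFP intervals, 0.0675% in replicate 1. These intervals too take each read as independent and leave out the differences between libraries of 1 group. For MEF2C replicate 3 alone the log2 difference was -1.18. Smooth muscle also uses Atp2a2, so Atp2a2 reads need not come from slow fibres, and their cell of origin was not tested.

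**Figure D2:**
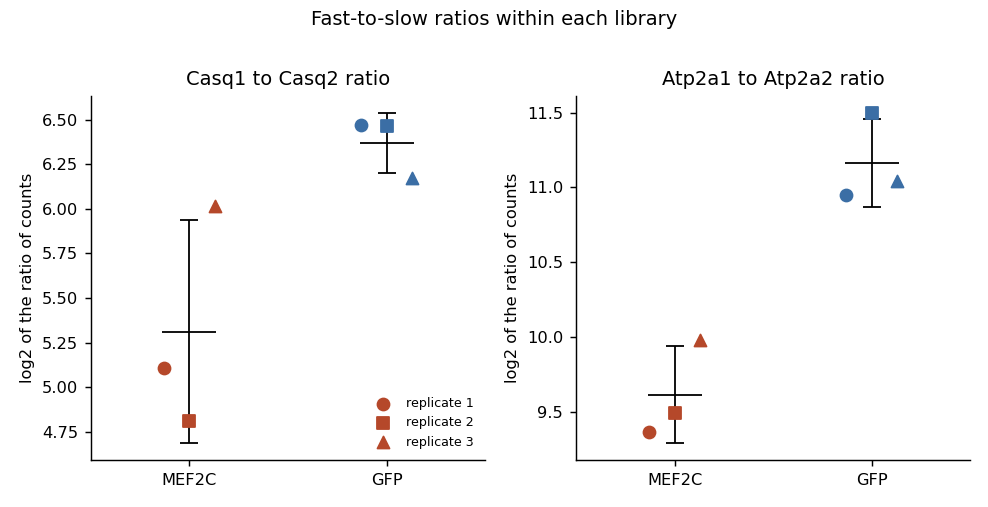
Log2 of the Casq1 to Casq2 and of the Atp2a1 to Atp2a2 ratio of counts, by group; points are libraries and bars are the mean ± SD of 3. Both ratios are lower in all 3 MEF2C libraries, with MEF2C replicate 3 the highest of its group in both panels and close to GFP replicate 3 for the calsequestrins.

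The slow forms were rare in both families, and the family totals lay close to the levels of the fast forms. Summed SERCA pump reads (Atp2a1, Atp2a2 and Atp2a3) averaged 20326 ± 942 normalised CPM in the MEF2C libraries and 25973 ± 3265 in the GFP libraries (SD, n = 3 each). Summed calsequestrin reads averaged 3065 ± 82.8 normalised CPM in the MEF2C libraries and 4412 ± 595 in the GFP libraries. The log2 differences were -0.35 ± 0.11 and -0.52 ± 0.11 (SE), without overlap, and the two-sided exact permutation p was 0.1 for each. The 2 ratios and 2 totals form a family of 4 tests, and the Benjamini-Hochberg adjusted p was 0.1 for each exact test.

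Sarcolipin had the largest fold change of the 9 genes and the widest spread. Sln, which encodes a short membrane peptide that inhibits SERCA pumps and is known in mouse from atria and from oxidative muscles such as the soleus and diaphragm (ENSMUSG00000042045, chromosome 9, 53850164 to 53854560, plus strand), had 897, 2711 and 663 counts across MEF2C replicates 1 to 3, and 248, 346 and 154 across GFP replicates 1 to 3. As normalised CPM this was 232, 675 and 160 in the MEF2C libraries, against 73.5, 110 and 40.8 in the GFP libraries. Every MEF2C library lay above every GFP library, replicate 2 was the highest and replicate 3 the lowest in either group, and the coefficient of variation was 78.3% in the MEF2C libraries and 46.5% in the GFP libraries. The mean was 4.75 times the GFP mean, with a log2 fold change of 2.25 ± 0.77 (SE), which did not pass (edgeR adjusted p = 0.856). Without MEF2C replicate 2 the log2 fold change was 1.39 (edgeR adjusted p = 0.865). The atrial markers Myl7 and Nppa were at 0 counts in all 6 libraries.

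Phospholamban was close to the detection floor. Pln, the SERCA inhibitor of heart, slow and smooth muscle (ENSMUSG00000038583, chromosome 10, 53337667 to 53345987, plus strand), had 15, 11 and 7 counts across MEF2C replicates 1 to 3, against 8, 9 and 9 across GFP replicates 1 to 3. The groups overlapped, and the gene did not pass edgeR's filter on low counts, so that 8 of the 9 genes were tested. With no filter its log2 fold change was 0.11 ± 0.45 (SE; edgeR adjusted p = 0.989), and a difference was not detectable at this depth. Pln lies within Cep85l, which is on the other strand and had 12 to 76 counts per library. The use of strand in counting is not given in the sources used here, so reads of the 2 genes might not be told apart. The same holds for Atp2a1 and Rabep2, which overlap on opposite strands, but Rabep2 had 68 counts in all 6 libraries together.

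The other 2 reticulum proteins had the smallest fold changes of the 8 tested genes. Srl, sarcalumenin, a calcium-binding glycoprotein of the reticulum lumen (ENSMUSG00000022519, chromosome 16, 4480216 to 4541816, minus strand), stood at 700, 641 and 495 normalised CPM across MEF2C replicates 1 to 3, against 697, 767 and 698 across GFP replicates 1 to 3. MEF2C replicate 3 was the lowest of all, and replicate 1 lay among the GFP libraries. The log2 fold change was -0.24 ± 0.14 (SE; edgeR adjusted p = 0.928), at -0.11 without MEF2C replicate 3. Hrc, the histidine-rich calcium-binding protein of the lumen (ENSMUSG00000038239, chromosome 7, 45335290 to 45338974, plus strand), stood at 435, 395 and 389 normalised CPM in the MEF2C libraries and at 491, 434 and 488 in the GFP libraries. The groups met at MEF2C replicate 1 and GFP replicate 2, and the log2 fold change was -0.21 ± 0.12 (SE; edgeR adjusted p = 0.928).

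Among the 8 tested genes, 5 had groups that did not overlap, 2 higher and 3 lower, where 11.1% of all tested genes did, 5.75% higher and 5.33% lower. The same 5, namely Pvalb, Casq1, Atp2a1, Atp2a2 and Sln, had an unadjusted edgeR p under 0.05, where 5.71% of all tested genes did, 3.36% higher and 2.35% lower. Both counts read the same differences in the same libraries. The genes were chosen with earlier results of these data known, so neither count is a test of the set. With library totals in place of TMM the median log2 fold change of all genes was 0.14 in place of 0.01. Under that scaling the log2 fold changes were -0.74 for Pvalb, -0.41 for Casq1, -0.23 for Atp2a1, 0.73 for Casq2, 1.33 for Atp2a2, 2.39 for Sln, -0.11 for Srl and -0.09 for Hrc, all with the direction they had under TMM.

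**Figure D3:**
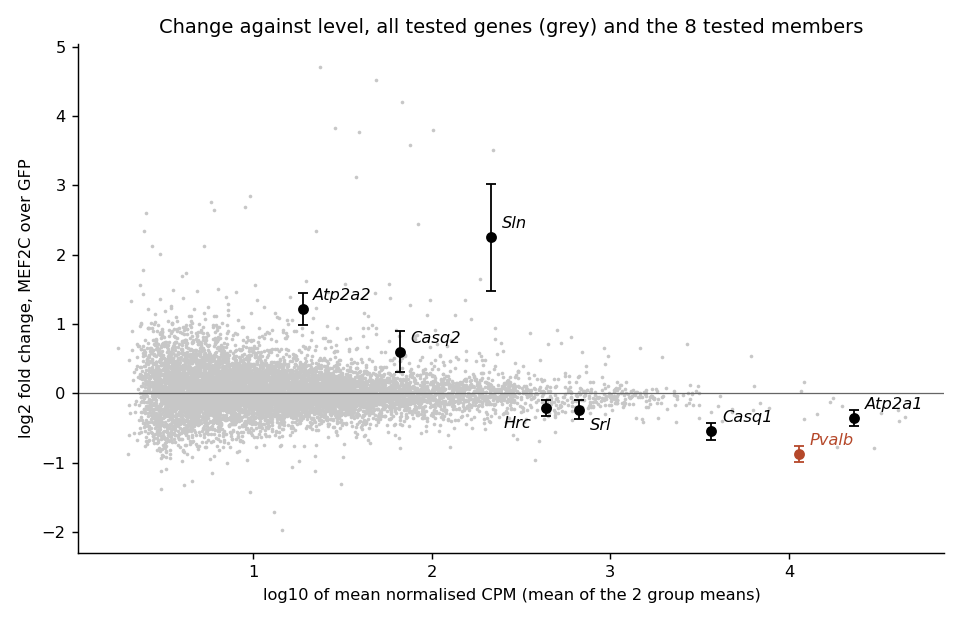
Log2 fold change (MEF2C over GFP) against log10 of mean normalised CPM for all 9229 tested genes in grey, with the 8 tested calcium-handling genes as points ± SE; Pvalb, the gene called by edgeR, is red. Sln at 2.25 and Atp2a2 at 1.21 lie above zero, and Pvalb, Casq1 and Atp2a1 lie below it at the high end of the level axis.

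Levels of different genes were set side by side per kilobase of the longest GENCODE transcript. On that scale the means were 8193 normalised CPM per kb in the MEF2C libraries and 15034 in the GFP libraries for Pvalb. Atp2a1 followed, at 5837 in the MEF2C libraries and 7466 in the GFP libraries, and then Casq1, at 1616 in the MEF2C libraries and 2360 in the GFP libraries. Casq2 stood at 31.3 and 20.6 per kb in the MEF2C and GFP libraries, and Pln at 1.19 and 1.09. Atp2a2 averaged 4.66 per kb in the MEF2C libraries and lay between 1.74 and 2.40 in the GFP libraries. Sln averaged 270 per kb in the MEF2C libraries and 56.8 in the GFP libraries, beside 169 and 195 for Hrc and 122 and 144 for Srl in the MEF2C and GFP libraries. Its mean above Hrc in the MEF2C group came from replicate 2 alone, at 512 per kb against 164 for Hrc, since Sln lay below Hrc in replicate 1 (176 against 181) and in replicate 3 (122 against 161). In full-length cDNA reads a transcript can give a single read whatever its length, so this scale may understate long transcripts, and the order depends on it. In undivided normalised CPM, Atp2a1 lay above Pvalb, with means of 20295 and 8005 in the MEF2C libraries and of 25958 and 14688 in the GFP libraries. On that undivided scale Sln, with a mean of 356 in the MEF2C libraries, lay below Hrc at 407 and Srl at 612. The 9 genes together took 3.44%, 3.37% and 3.47% of listed counts across MEF2C replicates 1 to 3, and 4.60%, 4.66% and 4.01% across GFP replicates 1 to 3.

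Within the groups the genes did not share 1 order of libraries. Centred on its own mean over the 6 libraries, the log2 level of Casq2 was 0.44, 0.78 and -0.45 across MEF2C replicates 1 to 3, and that of Atp2a2 was 0.90, 0.67 and 0.17. That of Sln was 0.70, 2.24 and 0.17, so that MEF2C replicate 3 was the lowest of its group for all 3 genes. Pvalb, at -0.36, -0.58 and -0.37 in these libraries, and Casq1, at -0.29, -0.24 and -0.28, did not set MEF2C replicate 3 apart. In GFP replicate 2 Pvalb, Casq1 and Atp2a1 were each the highest of the 6 libraries.

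**Figure D4:**
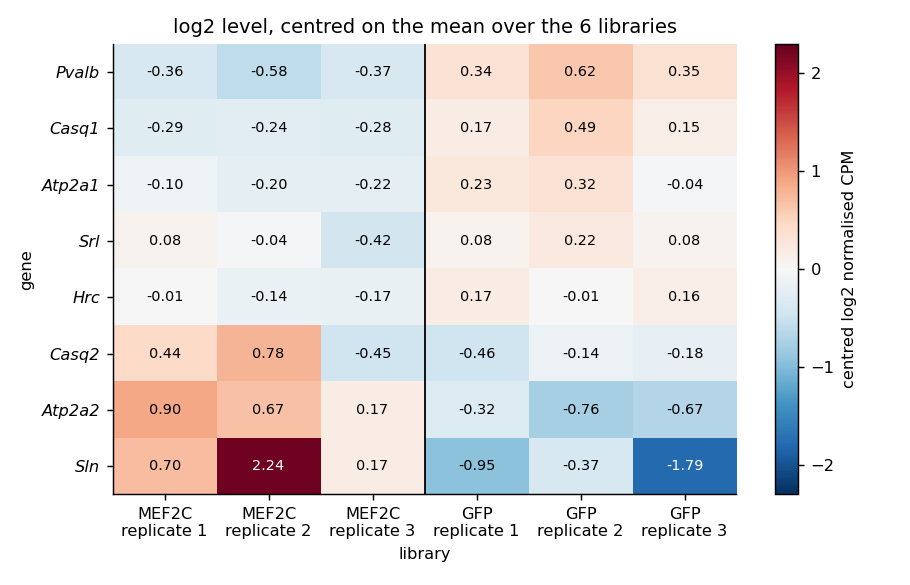
Log2 normalised CPM of the 8 tested genes, centred on each gene's mean over the 6 libraries; rows are genes, columns are the 3 MEF2C and then the 3 GFP libraries, and colour and number give the centred value. Casq2 is positive in MEF2C replicates 1 and 2 alone, whereas Pvalb and Casq1 are negative in all 3 MEF2C libraries and positive in all 3 GFP libraries.

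Filament markers of the same fibres gave the following levels beside these genes. The 7 slow-fibre filament markers summed to 1576, 1528 and 357 normalised CPM across MEF2C replicates 1 to 3, against 149, 131 and 199 across GFP replicates 1 to 3. MEF2C replicate 3 was thus the lowest of its group for the slow filaments as for Casq2, Atp2a2 and Sln. It also had the highest Mef2c level of the 6 libraries, at 371 normalised CPM, and a link between these values was not tested. The 8 fast-fibre filament markers summed to between 108059 and 112039 normalised CPM in the MEF2C libraries and between 144847 and 161896 in the GFP libraries. All 7 slow markers were higher at an unadjusted edgeR p under 0.05 (3.36% of all tested genes), with 0 called. All 8 fast markers had a negative log2 fold change, 4 at such a p (2.35% of all tested genes). Of the 8, 2 were called (0.0758% of all tested genes). These were Mylpf at -0.79 ± 0.11 and Myl1 at -0.78 ± 0.12 (SE), beside -0.88 for Pvalb. The part of fibre composition in the calcium-handling differences was not tested.

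Of the markers of other tissues, the smooth muscle and red cell sums did not overlap between the groups, and those of bone, granulocytes, adipocytes and Schwann cells overlapped. The 6 smooth muscle markers, a tissue that also uses Atp2a2 and Pln, summed to between 524 and 643 normalised CPM in the MEF2C libraries and between 404 and 512 in the GFP libraries. Of these 6, 5 had a positive log2 fold change, 0 were called by edgeR and 2 had an unadjusted p under 0.05. Of all 9229 tested genes, 4814 had a positive log2 fold change and 5.71% had an unadjusted edgeR p under 0.05. The 5 red cell markers summed to between 4393 and 8631 in the MEF2C libraries and between 3080 and 4166 in the GFP libraries. The 6 bone and osteoclast markers summed to 218, 92.9 and 35.6 across MEF2C replicates 1 to 3 and to between 34.1 and 45.8 in the GFP libraries. The 9 granulocyte markers summed to 1224 in MEF2C replicate 1, 75.3 in GFP replicate 3 and at most 5.73 elsewhere. The 5 adipocyte markers summed to between 825 and 1656 in the MEF2C libraries and between 727 and 987 in the GFP libraries, and the 5 Schwann cell markers to between 216 and 324 in the MEF2C libraries and between 290 and 332 in the GFP libraries. Their part in the results was not tested. Without MEF2C replicate 1, which held most of the granulocyte reads, the log2 fold changes of Pvalb, Atp2a2 and Sln were -0.92, 1.04 and 2.48.

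**Figure D5:**
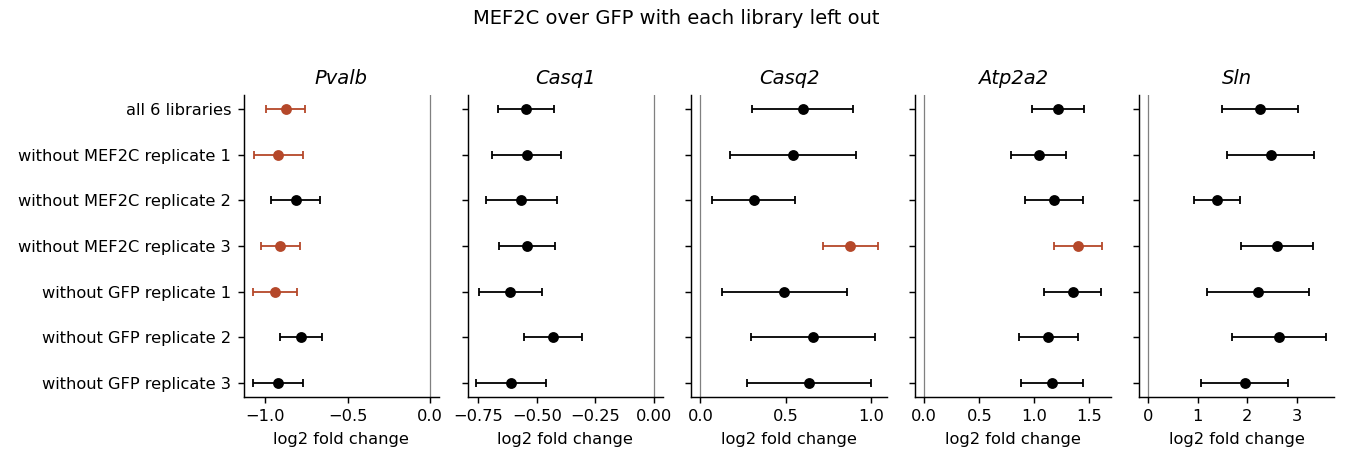
Log2 fold change (MEF2C over GFP, ± SE) of Pvalb, Casq1, Casq2, Atp2a2 and Sln with all 6 libraries and with each library left out, from top to bottom; red marks an edgeR adjusted p under 0.05. Casq2 lies between 0.31 and 0.88 and Sln between 1.39 and 2.64, and each keeps its sign.

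Of the wider calcium machinery, 70 of 71 listed genes were in the table, 56 were tested and 0 were called by edgeR. At an unadjusted edgeR p under 0.05, 4 were lower and 0 higher, which is 7.14% of those tested. Of all tested genes, 5.71% had such a p, 2.35% lower and 3.36% higher. Without MEF2C replicate 3 the count of listed genes with such a p, in either direction, was 12, where 637 of all 9485 genes then tested had one. How many of the listed genes were tested in that run is not given here. With all 6 libraries the median log2 fold change of the 56 tested listed genes was -0.05, beside 0.01 for all tested genes. Of all 9229 tested genes, 4814 had a positive fold change. The triad genes, which release calcium from the reticulum, had 14 of 17 tested members with a negative fold change and a median of -0.22. Of these 17, 3 were lower and 0 higher at an unadjusted edgeR p under 0.05. In that list Cacnb1, a subunit of the voltage-sensing calcium channel, stood at 30.6 ± 6.68 normalised CPM in the MEF2C libraries and 46.1 ± 0.950 in the GFP libraries (SD, n = 3 each; edgeR adjusted p = 0.617). Jsrp1, a junctional reticulum protein that binds that channel, stood at 165 ± 23.8 in the MEF2C libraries and 234 ± 44.2 in the GFP libraries (edgeR adjusted p = 0.677).

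The remaining calcium lists lay near the median of all genes. Among the other pump regulators, with 7 tested, 0 called and a median log2 fold change of 0.13, Mrln, the SERCA-inhibiting peptide myoregulin, stood at -0.33 ± 0.15 and S100a1, a calcium sensor of the pump and release channel, at 0.27 ± 0.14 (SE; edgeR adjusted p = 0.872 and 0.928). The cytosolic sensors had 6 tested members and a median of 0.07, with Calm2, a calmodulin gene, at -0.22 ± 0.13 (SE). Entry and extrusion genes had 6 tested members and a median of -0.02, with the channel gene Orai3 at -0.46 ± 0.25 and the plasma membrane pump gene Atp2b4 at 0.41 ± 0.29 (SE). Mitochondrial calcium genes had 9 tested members and a median of -0.04, with Mcu, the uniporter pore, at -0.80 ± 0.35 (SE). Calcineurin, NFAT and CaMKII genes had 13 tested members and a median of 0.00, with the kinase genes Camk2g at -0.23 ± 0.14 and Camk2a at -0.33 ± 0.20 (SE). None of these lists had a gene called by edgeR, and at an unadjusted p under 0.05 they held 1 gene, Mcu.

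The genes most like each calcium-handling gene were sought among 6995 tested genes, by the root mean square distance between centred log2 profiles over the 6 libraries. For Pvalb the nearest were Mafa, a MAF-family transcription factor, at 0.07, Myl1, the fast essential myosin light chain, at 0.12, and Rtn4, a membrane-shaping protein, at 0.12, where the spread of Pvalb itself was 0.45 on the same scale. Mafa stood at 6.22, 5.98 and 6.53 normalised CPM across MEF2C replicates 1 to 3, against 11.0, 15.0 and 10.9 across GFP replicates 1 to 3 (edgeR adjusted p = 0.413). For Casq2 the nearest were Vipas39 at 0.12, Eef1akmt3 at 0.13 and Actn2, an alpha-actinin of the Z-disc, at 0.13, with a spread of 0.46. For Atp2a2 they were Dkk3 at 0.21, Timp1 at 0.22 and Ctse at 0.26, with a spread of 0.63. Sln had no close match: Pygl, a glycogen phosphorylase, lay at 0.70, Chrna1, an acetylcholine receptor subunit, at 0.71 and Hp, haptoglobin, at 0.74, beside a spread of 1.28.

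The nearest profiles of the other genes followed smaller spreads. For Casq1, with a spread of 0.29, they were Smyd3 at 0.06, Itgb3bp at 0.07 and Rbbp5 at 0.07. For Atp2a1, with a spread of 0.21, they were Sgcb, a sarcoglycan of the fibre membrane, and Map2k3, both at 0.06, and Sec24c, a vesicle coat subunit, at 0.06. For Srl, with a spread of 0.20, they were Wdr89, Rps12, a ribosomal protein gene, and Cs, citrate synthase, each at 0.05. For Hrc, with a spread of 0.13, they were Cdc5l and Patl1 at 0.04 and Fbxo31 at 0.05. Of all these genes, Myl1, Rtn4 and Chrna1 were called by edgeR (adjusted p = 0.0342, 0.0428 and 0.0162). Among all 9229 tested genes, 0.0758% were called. The nearest genes were picked for their likeness over the same 6 libraries. A like group difference therefore follows in part from the choice, and these calls are no separate result.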

How the data were processed

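The authors deposited read counts per gene for 6 Nanopore PCR-cDNA libraries, per the file headers, and CPM of the same libraries, deposited per the file headers and used here only to see that the listed genes sum to between 95.6% and 96.4% of the full CPM scale. The submitters' processing notes name minimap2, GRCm38 and DESeq2 1.6.3, without roles, while the sources used here do not name the counting tool, annotation, strand setting or read filters. Of the rows, 30 held blank fields or annotation text in place of a gene and were left out.

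Counts were fitted as deposited with edgeR 4.0.16 in R 4.3.3 (robust quasi-likelihood test, filter by group, TMM), with Benjamini-Hochberg adjustment over all 9229 tested genes and calls at an adjusted p under 0.05. SEs come from the F statistic. Ratios and totals had exact permutation tests. Alternatives used DESeq2 1.42.0, limma-voom (limma 3.58.1), other scalings and filters, a replicate block and left-out libraries. A loess correction on transcript length (span 0.3) and MEF2C replicate 3 alone were added after seeing the data. The edgeR step was tested on simulated data. Coordinates and lengths are from GENCODE vM21 and promoters from RefSeq (GRCm38.p6). Libraries of 1 group differed beyond sampling noise, with a chi-square per degree of freedom of 4.95 to 10.3.

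The genes and lists were chosen with earlier results of these data known. The text names all 9 genes, up to 2 genes of the smallest p per list, and the 3 nearest profiles per tested gene (mean of at least 20 counts). Erln, of the 71 listed genes, was not matched to the table, and Strit1 and Aln were matched through RefSeq synonyms. A gene that this rule would name is not reported here.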

Additional observations from a re-analysis of the deposited data

How the results depend on the processing

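The direction of each tested gene, of both ratios and of both totals held in every alternative run except for Casq2, which had a log2 fold change of -0.22 when MEF2C replicate 3 was the sole MEF2C library (its spread then taken from the GFP libraries; edgeR adjusted p = 0.844); the cause was not tested. The count of 1 called gene became 3 with no low-count filter (Pvalb, Casq1 and Atp2a2, with 0.228% of genes called). It became 2 with DESeq2 (Pvalb and Atp2a2) and 0 with non-robust dispersion. Under non-robust dispersion 6 of the genes, with Casq2 among them, had an unadjusted edgeR p under 0.05, where 557 of all 9229 genes did. With each library left out the count of called genes ranged from 0 to 3. The count of 4 calcium pathway genes at an unadjusted p under 0.05 became 7 with no filter, where more genes are tested, and ranged from 3 to 12 with libraries left out, with 12 without MEF2C replicate 3.

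The replicate numbers do not pair the libraries by the data: the correlations of same-numbered deviations were -0.23, 0.05 and -0.25. With a replicate block edgeR called 2 of 9229 genes in place of 7. Sln was called (log2 fold change 2.09, adjusted p = 0.00101), Pvalb was not (-0.87, adjusted p = 0.0950), and the count of called genes among the 9 stayed at 1. The ratios under the block kept their log2 differences of -1.06 and -1.55, with an exact sign-flip p = 0.25, the smallest 3 pairs allow. Left-out libraries gave log2 differences between -1.41 and -0.81 for the calsequestrin ratio and between -1.73 and -1.38 for the pump ratio. Depth limits Pln and, at 31 to 125 counts, the precision of Atp2a2.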

Other observations

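The following values were chosen after they were seen and carry no test. Pvalb reads per Atp2a1 read, a ratio of 2 fast-fibre genes that needs no scaling between libraries, were 0.394, 0.364 and 0.426 across MEF2C replicates 1 to 3, against 0.508, 0.579 and 0.618 across GFP replicates 1 to 3. The groups did not overlap in this ratio. Strit1, the peptide DWORF that activates SERCA pumps (Gm34302 in the table), had 3, 1 and 0 counts across MEF2C replicates 1 to 3 and 0 in all GFP libraries, which is at or under the floor of 3 counts in all 6. Atp2a3, the pump SERCA3 of non-muscle cells, had 22, 16 and 15 counts across MEF2C replicates 1 to 3, against 15, 14 and 10 across GFP replicates 1 to 3. As normalised CPM it stood at 4.44 ± 1.11 in the MEF2C libraries and 3.85 ± 1.04 in the GFP libraries (SD, n = 3 each), and the groups overlapped.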
